A study of Rattus norvegicus with 16 samples.

Results

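The genes described here are 94 rat genes whose symbols belong to the classical cell cycle families. They were chosen by name alone: cyclins with a letter and a number, cyclin-dependent kinases (Cdk) and their inhibitors (Cdkn), the minichromosome maintenance genes (Mcm), E2f factors, Aurora kinases (Aurk), polo-like kinases (Plk) and genes named Cdc. Cdkn1a was left out. Each of the 94 was measured by 1 transcript cluster, the unit of the array, out of 15037 named symbols and 23188 clusters in all. A shared name is not a shared function, and the set also held transcription kinases, chaperones and effectors of the GTPase CDC42, which are described apart from the genes of the division cycle.

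The samples were diaphragms of 16 male Wistar rats aged 14 to 16 weeks, with 4 rats in each of 4 groups. Control rats (CON) were not ventilated, and their diaphragm was taken straight after anaesthesia. V12 rats had a tracheostomy and 12 h of mechanical ventilation. S-V12 rats had the same ventilation plus a midline abdominal incision with electrodes placed in the diaphragm but no current, and E-V12 rats had the same operation with continuous electrical stimulation. All 3 ventilated groups were under prolonged anaesthesia, so V12 against CON holds ventilation, tracheostomy, anaesthesia and time together. By the study's methods both operated groups also received supplemental oxygen, so the operation and the oxygen cannot be told apart in S-V12 against V12. Each rat gave 1 array. The main p-values set a difference between groups against the spread between rats within groups, estimated over the 4 groups together.

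In a dividing cell, D-type cyclins with CDK4 or CDK6 and then cyclin E with CDK2 release E2F factors from their pocket-protein partners, and E2F targets such as the MCM helicase genes are switched on for DNA replication. Cyclin B with CDK1, the Aurora and polo-like kinases and the anaphase-promoting complex then carry the cell through mitosis. Adult muscle fibres have left the cycle, and in resting muscle division is a property of satellite cells and of other cells between the fibres. In a bulk sample, fewer cells of a type and less RNA per cell cannot be told apart.

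Promoter windows of 300 bases around the annotated gene start (RefSeq, build GRCr8) were matched for 74 of the 94 genes. They were searched on both strands for letters of the E2F motif, TTTGGCGC, TTTCCCGC, TTTCGCGC or TTTGCGC, which can overlap one another. At least 1 match lay in 10 of the 74 windows (13.5%), against 3.33% of 33469 rat promoters of the same length. The 10 were Cdc25a, Cdc42bpb, Cdk1, Cdk4, E2f3, Mcm2, Mcm3, Mcm6, Mcm7 and Mcm8. The letters TTTGAA, the core of the cell cycle homology region of late cell cycle promoters, lay in 13 of the 74 (17.6%) and in 18.3% of all promoters. A match is a description of the letters and not a binding site. Given in full are the windows of Mcm7 (chr12:22163129-22163428, minus strand), which rose in S-V12 against V12, of Mcm2 (chr4:122918045-122918344, minus strand), another helicase subunit with 2 overlapping matches, and of Ccnl1 (chr2:152507419-152507718, minus strand), the gene with the largest change after ventilation and no match. They run 5′ to 3′ with the E2F letters in capitals.
Mcm7: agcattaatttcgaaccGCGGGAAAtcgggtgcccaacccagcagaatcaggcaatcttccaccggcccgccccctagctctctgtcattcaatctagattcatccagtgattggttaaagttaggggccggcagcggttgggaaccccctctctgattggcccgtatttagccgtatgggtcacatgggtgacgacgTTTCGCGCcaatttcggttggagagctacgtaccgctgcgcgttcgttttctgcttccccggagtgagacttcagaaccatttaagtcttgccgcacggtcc
Mcm2: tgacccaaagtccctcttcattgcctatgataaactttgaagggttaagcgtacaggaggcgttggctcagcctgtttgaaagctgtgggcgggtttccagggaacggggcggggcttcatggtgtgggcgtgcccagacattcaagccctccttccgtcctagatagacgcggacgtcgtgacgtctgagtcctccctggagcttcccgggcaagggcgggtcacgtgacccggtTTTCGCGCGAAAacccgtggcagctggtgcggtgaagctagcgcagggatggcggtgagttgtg
Ccnl1: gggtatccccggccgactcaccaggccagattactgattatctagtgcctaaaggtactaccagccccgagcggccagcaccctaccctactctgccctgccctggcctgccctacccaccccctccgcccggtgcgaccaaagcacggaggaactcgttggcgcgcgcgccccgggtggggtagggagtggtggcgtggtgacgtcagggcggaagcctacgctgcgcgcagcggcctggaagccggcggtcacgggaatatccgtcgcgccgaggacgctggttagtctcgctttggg

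Most replication genes and several mitotic genes of the set were not measurable above background, as was true of many clusters of the array. The limit used was the highest of 23 background control rows on each array, which lay between 6.39 and 7.20 on the log2 signal scale. Above it on all 16 arrays were 40 genes, below it on all 16 were 31, and 23 were mixed. Of 11 genes of replication licensing and origin firing, 8 lay below the limit on every array: Mcm2, Mcm3, Mcm6, Mcm8, Mcm10, Cdc6, Cdc7 and Cdc45. Of 16 genes of mitotic entry, spindle and exit, 6 lay below it on every array, and these were Cdk1, Ccnb1, Ccnb2, Aurkb, Plk1 and Cdc20. By contrast, 14 of 21 genes of transcription, splicing and other CDK functions were above it throughout.

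**Figure D1:**
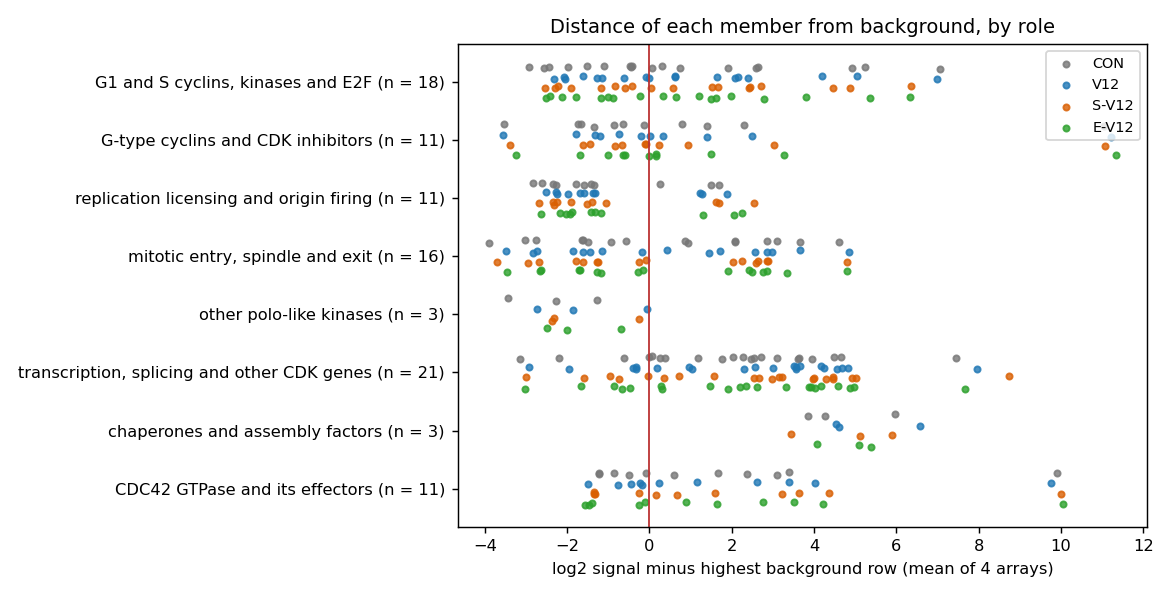
Distance of each of the 94 genes from background, as the mean over 4 arrays of its log2 signal minus that array's highest background row (x axis), by role (y axis) and group (colour). The red line marks the limit, and 8 of the 11 replication genes lie left of it on every array.

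The arrays were alike in depth of signal, with medians from 5.571 to 5.727, and 43 to 55 of the 94 genes above the limit on each. The fewest were on CON replicate 3, which had the highest limit. All 12 skeletal muscle markers were above background on every array and 10 of 11 measured lymphocyte markers were below it. The mean log2 level of 13 macrophage markers was 5.93 to 6.72 in CON, 6.44 to 7.52 in V12, 7.39 to 8.08 in S-V12 and 7.05 to 7.73 in E-V12. Of these, 5 rose and 1 fell in V12 against CON, and 3 rose in S-V12 against V12. Of 10 satellite cell markers, Myf5 and Sdc4 rose and Chrdl2 fell in V12 against CON, and of 9 smooth muscle and pericyte markers 3 fell. Of 9 fibroblast markers, 2 fell in V12 against CON (median log2 change -0.81, with 6 at an unadjusted p under 0.05), and against CON 4 fell and 2 rose in S-V12 and 6 fell and 2 rose in E-V12. In S-V12 against V12, the muscle markers Tnnt1 and Tnni2 fell and the fibroblast marker Pdgfra rose. The part of these cell types in the results that follow was not tested.

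After 12 h of ventilation, 6 of the genes that rose were cyclins and kinases of transcription and splicing, among them Ccnl1, Cdk12 and Cdk9, while Ccnd3, Cdkn1b and Cdk5rap1 fell. In V12 against CON, 11 of the 94 genes rose (11.7%) and 8 fell (8.51%) at an adjusted p under 0.05 in limma. Over all clusters 7.68% rose and 8.67% fell, so the set as a whole lay near the shares over all clusters. Among clusters above background on at least 1 array 13.5% rose and 16.3% fell. The 94 include 31 genes below background on every array, so here and below their shares are not on the same base as that second pair. The median log2 change of the 94 was 0.05, beside 0.03 over all clusters, and the groups did not overlap for 16 genes, beside 16.4% of clusters. With adjusted p, the methods' t-test no longer called 14 of these 19 genes: Cdk12 (0.102), Cdk9 (0.085), Cdk13 (0.089), Cdk8 (0.146), Ccnt2 (0.295), Cdk5rap1 (0.09), Ccne2 (0.142), Ccna1 (0.123), Cdkn1b (0.119), Mcm4 (0.088), Cdc25b (0.167), Plk2 (0.0618), Cdc42bpg (0.171) and Cdc42se2 (0.121). A limma fit of V12 and CON alone lost Ccna1, Aurka, Ccnt2, Cdc42bpg and Cdc42se2 (adjusted p 0.0562 to 0.0783), and array weights lost Ccna1 (0.0502).

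Ccnl1 encodes cyclin L1, which works with CDK11 in RNA splicing. Its log2 signal was 8.62, 8.39, 8.37 and 8.27 in CON and 10.65, 10.85, 10.73 and 10.39 in V12, so every ventilated rat was well above every control. The log2 change was 2.24 ± 0.18 (SE), or 4.73-fold, with an adjusted p of 4.34e-09. In S-V12 it read 10.48, 10.16, 10.70 and 10.51 and in E-V12 10.64, 10.37, 10.49 and 10.63, and S-V12 differed from V12 by -0.19 ± 0.18 (adjusted p 0.542).

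Among the kinases of the transcription and splicing group, Cdk12, Cdk13, Cdk9 and Cdk8 rose. Cdk12, which phosphorylates RNA polymerase II, read 9.64, 9.13, 8.23 and 8.63 in CON and 9.95, 10.21, 10.13 and 9.86 in V12, with no overlap (log2 change 1.13 ± 0.24, adjusted p 0.00195). Cdk9, the kinase of the elongation factor P-TEFb, read 8.16, 7.26, 7.86 and 7.95 in CON and 8.60, 8.86, 8.47 and 9.20 in V12 (0.98 ± 0.22, adjusted p 0.0026). All V12 values of Cdk9 exceeded all CON values. Cdk13, the close relative of Cdk12, rose from 10.28 ± 0.39 to 11.04 ± 0.10 (SD, n = 4; log2 change 0.76, adjusted p 0.00791), and Cdk8, the kinase of the Mediator complex, from 10.24 ± 0.49 to 11.15 ± 0.33 (0.90, adjusted p 0.00632). Cdk19, the other Mediator kinase, went from 11.30 to 10.72 (-0.58 ± 0.22, adjusted p 0.0812), and Cdk11b, the partner kinase of cyclin L1, had a log2 change of 0.30 ± 0.21 (adjusted p 0.421). Neither passed the test.

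Ccnt2 encodes cyclin T2, a partner of CDK9. It read 10.32, 8.96, 8.29 and 8.85 in CON and 10.55, 10.02, 10.39 and 9.54 in V12 (log2 change 1.02 ± 0.31, adjusted p 0.0233). CON replicate 1 lay within the V12 range, so the groups overlapped. The call was lost without CON replicate 2, 3 or 4 or V12 replicate 1 or 3 (adjusted p 0.0558 to 0.109). In the transcription, splicing and other CDK group 6 of 21 genes rose (28.6%) and 1 fell (4.76%). Over all clusters 7.68% rose and 8.67% fell, and 13.5% and 16.3% of clusters above background on at least 1 array. The counts of the other roles below stand beside the same shares. No role was tested as a set, and each holds few genes.

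The gene that fell was Cdk5rap1, which despite its name encodes an enzyme that modifies mitochondrial transfer RNA. It read 9.09, 8.22, 8.48 and 8.92 in CON and 7.43, 7.81, 7.83 and 6.73 in V12, with no overlap. The log2 change was -1.23 ± 0.24 (adjusted p 0.000726), and the level was 7.19 ± 0.15 in S-V12 and 6.79 ± 0.22 in E-V12.

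**Figure D2:**
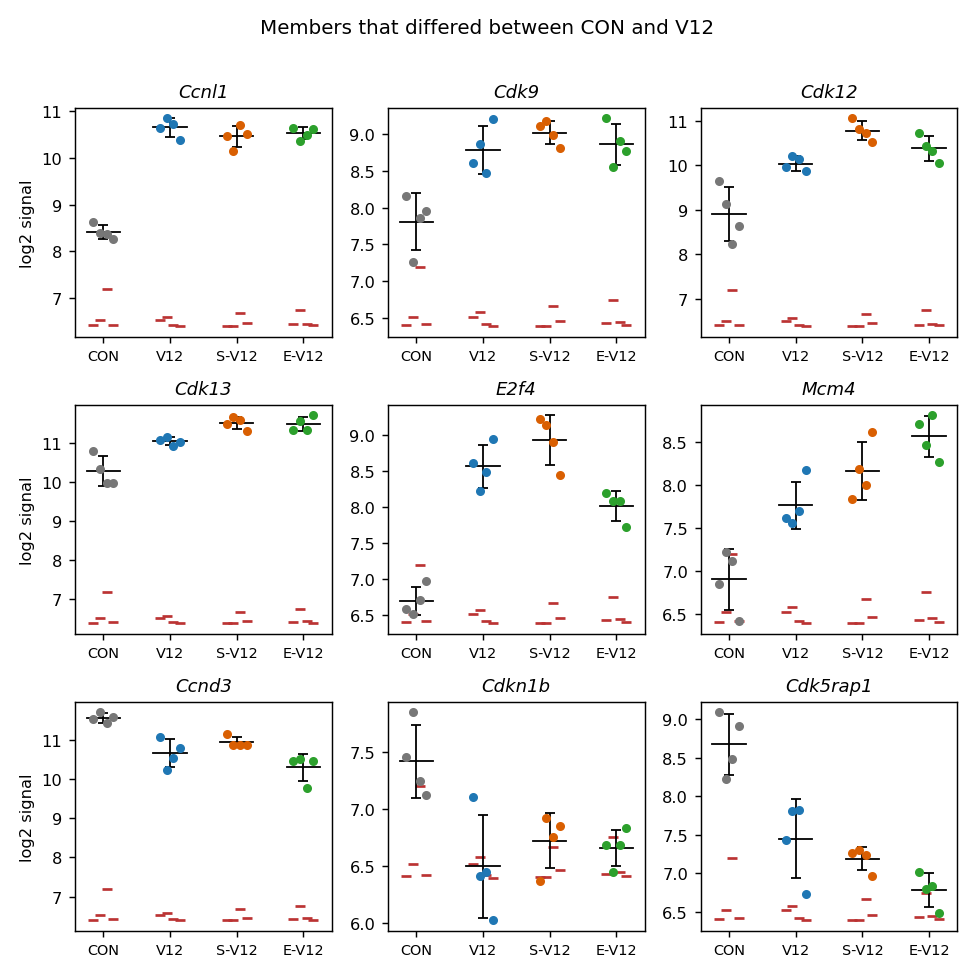
Log2 signal (y axis) of 9 genes on each of 16 arrays, by group (x axis). Points are arrays, horizontal lines and bars are the mean ± SD (n = 4), and red ticks are each array's highest background row. Ccnl1 lies between 8.27 and 8.62 in CON and between 10.39 and 10.85 in V12.

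Among G1 and S phase genes, 2 of 18 rose and 3 fell. E2f4, known as a repressor E2F that sits on cell cycle promoters in resting cells, read 6.59, 6.52, 6.71 and 6.97 in CON and 8.61, 8.22, 8.49 and 8.94 in V12. The groups stood well apart (log2 change 1.87 ± 0.21, 3.66-fold, adjusted p 6.96e-07), with CON replicate 3 below the background limit. Ccne2, an E-type cyclin that activates CDK2, rose from 6.42, 5.72, 6.77 and 5.98 to 7.17, 6.62, 7.30 and 7.28 (0.87 ± 0.25, adjusted p 0.0157). CON replicates 2, 3 and 4 were below the limit and the groups overlapped. The call was lost without CON replicate 2 or 4 or V12 replicate 3 (adjusted p 0.0521 to 0.0659).

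The D-type cyclins, which start G1 with CDK4 and CDK6, were lower or not called. Ccnd3 read 11.54, 11.71, 11.43 and 11.60 in CON and 11.08, 10.23, 10.55 and 10.81 in V12, with no overlap (log2 change -0.90 ± 0.21, adjusted p 0.00329). Ccnd1 was called lower (adjusted p 0.00118) at 6.28, 5.74, 6.40 and 6.26 in CON and 4.97, 5.09, 5.52 and 5.20 in V12, but all these values were below background and no fold is given. Ccnd2 read 6.88, 6.80, 6.98 and 7.09 in CON and 6.85, 5.96, 6.42 and 6.30 in V12 (-0.56 ± 0.20, adjusted p 0.0632), and did not pass the test.

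Cdk4, the kinase partner of the D cyclins, did not pass either. It read 8.40, 8.90, 8.56 and 8.33 in CON and 7.91, 8.51, 8.08 and 7.94 in V12 (log2 change -0.44 ± 0.21, adjusted p 0.192). Ccna1, the A-type cyclin best known from germ cells, fell from 9.28 ± 0.27 to 8.64 ± 0.28 (-0.64, adjusted p 0.0395), and the call was lost without CON replicate 1, 2 or 4 or V12 replicate 2, 3 or 4 (adjusted p 0.0528 to 0.130). Ccne1, Ccna2, Cdk2, Cdk6 and E2f1 were below background on every array. Over the 16 arrays their signals ran from 3.35 to 4.89 for Ccne1, 3.11 to 4.88 for Ccna2, 4.90 to 5.77 for Cdk2, 4.75 to 6.24 for Cdk6 and 3.19 to 4.75 for E2f1.

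Of 11 G-type cyclins and CDK inhibitors, 1 passed the test. Cdkn1b encodes p27, which holds cyclin E with CDK2 inactive. It read 7.46, 7.85, 7.25 and 7.12 in CON and 7.11, 6.41, 6.45 and 6.02 in V12 (log2 change -0.92 ± 0.22, adjusted p 0.00518), so the lowest CON rat lay just above the highest V12 rat. V12 replicates 2 and 4 were below the background limit, so the size of this fall is uncertain. The related inhibitor Cdkn1a (p21), outside the 94, went the other way, from 9.03 ± 0.88 to 14.61 ± 0.18 (5.58 ± 0.29, adjusted p 3.86e-12).

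Ccng1, a p53 target, differed by -0.00 ± 0.18 (adjusted p 0.998), with a 95% interval of the log2 difference from -0.38 to 0.38. It read 17.92, 18.02, 17.24 and 17.58 in CON and 17.66, 17.68, 17.59 and 17.83 in V12. Cdkn1c (p57) read 6.03, 6.16, 5.98 and 4.89 in CON and 6.07, 4.63, 6.58 and 5.64 in V12, and Cdkn3, a phosphatase of CDKs, 4.44, 4.80, 5.33 and 5.0 against 5.12, 5.06, 5.45 and 4.98. Both were below background on 15 of 16 arrays, and neither passed the test (adjusted p 0.967 and 0.656). Cdkn2c (p18) ran from 4.28 to 5.81, below background throughout.

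Of 11 replication genes, Mcm4 alone rose. Mcm4, a subunit of the MCM helicase, read 6.85, 7.22, 7.12 and 6.42 in CON and 7.62, 7.56, 7.70 and 8.17 in V12 (log2 change 0.86 ± 0.22, adjusted p 0.00807), without overlap and with CON replicates 3 and 4 not above the limit. It stood at 8.16 ± 0.34 in S-V12 and 8.57 ± 0.24 in E-V12, which against CON were changes of 1.26 ± 0.22 and 1.67 ± 0.22. Its partners Mcm2, at 4.21 to 5.63, and the loading factor Cdc6, at 4.79 to 5.73, were below background on all arrays.

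In the mitotic group, 1 of 16 genes rose and 1 fell, both close to background. Aurka, the kinase of centrosome and spindle assembly, read 5.96, 5.68, 5.66 and 5.53 in CON and 6.29, 6.50, 6.33 and 6.11 in V12, all below the limit (adjusted p 0.0243). Its call was lost without CON replicate 4 or V12 replicate 2 or 3 (adjusted p 0.0522 to 0.0801). Cdc25b, the phosphatase that activates CDK1, read 6.83, 5.44, 6.01 and 5.96 in CON and 5.32, 5.35, 5.03 and 4.41 in V12 (adjusted p 0.00607), with CON replicate 1 the only array above the limit.

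Several genes of mitotic entry and chromosome segregation were below background on every array. Their signals over the 16 arrays ran from 3.34 to 4.24 for Cdk1, 4.46 to 5.84 for Ccnb1, 2.55 to 3.50 for Aurkb, 4.41 to 5.92 for Plk1 and 3.22 to 4.09 for Cdc20. None of these 5 passed the test in any of the 5 comparisons made. Plk2, a polo-like kinase of centriole duplication and stress, was called higher in V12 (adjusted p 0.00186) at 5.07, 5.45, 5.53 and 5.37 in CON and 6.40, 5.80, 6.77 and 6.66 in V12. All CON arrays were below the limit and V12 replicates 3 and 4 were above it. Plk3, at 2.71 to 4.53, was below background throughout.

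Of 11 genes for CDC42 and its effectors, 2 fell. Cdc42se2, a small CDC42-binding protein, fell from 8.31 ± 0.29 to 7.63 ± 0.28 (log2 change -0.68, adjusted p 0.0158), a call lost with CON replicate 2 or V12 replicate 3 removed (adjusted p 0.0662 and 0.0658). Cdc42bpg, a CDC42-binding kinase, was called lower (adjusted p 0.0246) wholly below background, and the call was lost without CON replicate 2 or 4 or V12 replicate 1 or 4 (adjusted p 0.0532 to 0.0942).

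**Figure D3:**
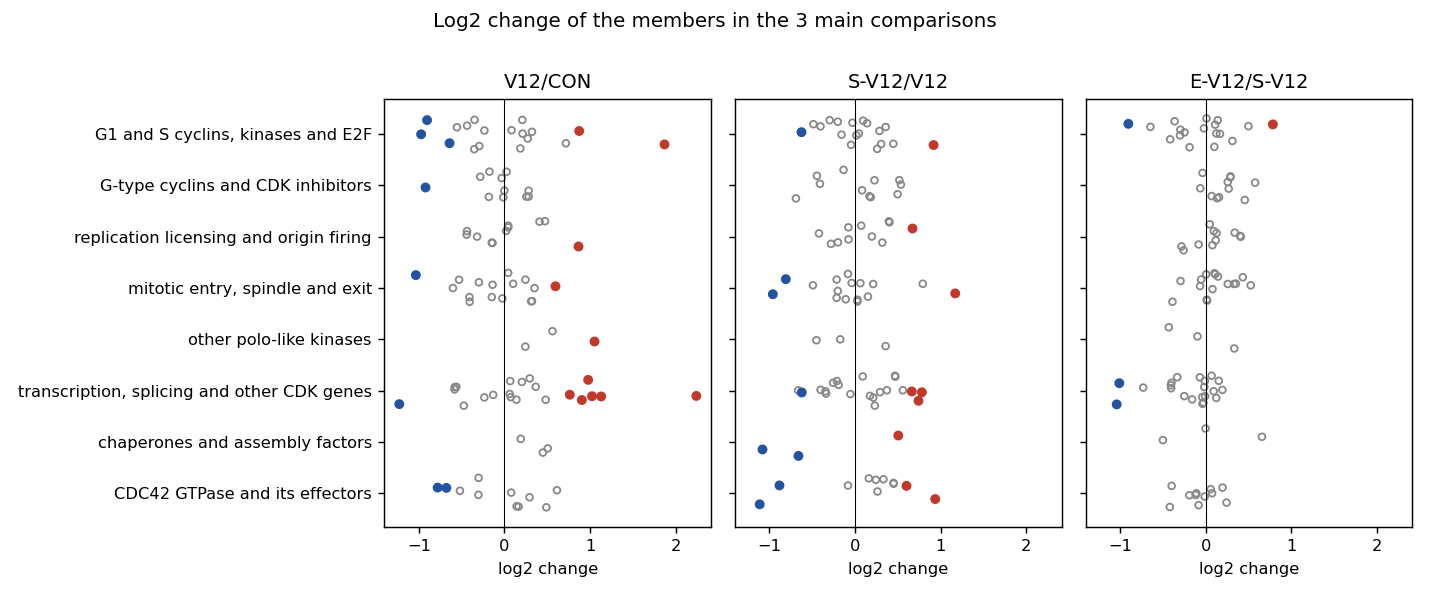
Log2 change of the 94 genes (x axis) by role (y axis) in V12/CON, S-V12/V12 and E-V12/S-V12. Filled points passed an adjusted p under 0.05 (red higher, blue lower), open points did not, and genes below background are plotted as measured. In V12/CON the transcription and splicing group holds 6 red points and 1 blue point.

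With the operation and oxygen added to ventilation, Cdc16, E2f3, Cdk16 and Mcm7 were among the genes that rose, and Cdc123, Cdc26 and Aurkaip1 among those that fell. In S-V12 against V12, 9 of the 94 genes rose (9.57%) and 8 fell (8.51%), beside 8.05% and 6.66% of all clusters and 15.6% and 11.4% of clusters above background on at least 1 array. The groups did not overlap for 22 genes, beside 19.8% of clusters, and the median log2 change was 0.07, beside -0.05 over all clusters. The shares called thus lay near those over all clusters. They are not on the same base as those of clusters above background, because the 94 include genes below background on every array. This comparison shares its V12 arrays with the one before.

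Of 4 subunits of the anaphase-promoting complex among the 94, the ubiquitin ligase that ends mitosis, 1 rose and 1 fell. Cdc16 read 8.25, 8.24, 7.87 and 8.38 in V12 and 9.41, 9.29, 9.39 and 9.33 in S-V12, wide apart (log2 change 1.17 ± 0.19, adjusted p 0.000183). Cdc26 read 9.70, 9.38, 9.0 and 9.78 in V12 and 8.62, 8.58, 8.47 and 8.34 in S-V12, again without overlap (-0.96 ± 0.22, adjusted p 0.00482). Cdc23 and Cdc27 differed by 0.03 ± 0.19 and -0.04 ± 0.20 (adjusted p 0.949 and 0.93). Of 7 measured Anapc genes, outside the 94, Anapc13 fell (-0.74 ± 0.19, adjusted p 0.00832) and the others did not pass. Aurkaip1, named for binding Aurora A and known as a mitochondrial ribosome component, read 10.01, 10.47, 9.97 and 10.14 in V12 and 9.41, 9.25, 9.76 and 8.92 in S-V12 (-0.81 ± 0.20, adjusted p 0.00885; 0.0644 in the methods' t-test).

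Of the G1 and S phase genes, E2f3, an activator E2F, rose and E2f6, a repressor E2F, fell. E2f3 read 7.01, 6.86, 7.32 and 7.17 in V12 and 8.09, 7.98, 8.13 and 7.83 in S-V12, with no overlap (log2 change 0.92 ± 0.21, adjusted p 0.00421). E2f6 had a log2 change of -0.63 ± 0.20 (adjusted p 0.0416). The E2f6 call was lost without V12 replicate 1, 2 or 4, S-V12 replicate 1, 2 or 4 or E-V12 replicate 3 (adjusted p 0.0506 to 0.131). It was also lost with array median centring (0.0814), in limma on V12 and S-V12 alone (0.0683) and in the methods' t-test (0.149).

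Mcm7, whose window with 2 E2F matches is shown above, rose from 8.36 ± 0.22 to 9.02 ± 0.10 (log2 change 0.66 ± 0.18, adjusted p 0.0133). Its 4 S-V12 values, from 8.89 to 9.13, were all above the highest V12 value of 8.58. Of the 10 genes with E2F letters, E2f3 and Mcm7 passed the test here, beside 8.05% of all clusters higher. None did in V12 against CON or in E-V12 against S-V12. Against CON, Cdc42bpb, E2f3 and Mcm7 were called higher and Mcm2 lower in S-V12, and Cdc42bpb higher in E-V12. Mcm2 was below background on every array. Leaving out some single arrays ended the S-V12/CON calls of E2f3 and Mcm2 (adjusted p up to 0.127 and 0.121). A link between the letters and these changes was not tested.

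Kinases with a role outside the cycle also moved. Cdk16, a PCTAIRE kinase, rose from 14.45 ± 0.13 to 15.23 ± 0.16 (log2 change 0.78, adjusted p 0.0111). Cdk12 rose again (0.74 ± 0.24, adjusted p 0.043), a call lost without any 1 of the V12 replicates, S-V12 replicate 1, 2 or 3 or E-V12 replicate 2 or 3 (adjusted p 0.051 to 0.124) and with quantile normalisation (0.10). Cdk10, the partner of cyclin M, rose by 0.66 ± 0.20 (adjusted p 0.029), and its call was lost without V12 replicate 2, 3 or 4 or S-V12 replicate 1, 2 or 4 (adjusted p 0.0544 to 0.0797) or with quantile normalisation (0.0754).

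Cdk5, a kinase best known from neurons, was called lower in S-V12 (adjusted p 0.037). All 4 S-V12 arrays were below background, as were 3 of the 4 V12 arrays. It read 6.73, 5.76, 5.87 and 6.21 in V12 and 5.74, 5.59, 5.48 and 5.28 in S-V12. The call was lost without V12 replicate 1 or 4 or S-V12 replicate 2, 3 or 4 (adjusted p 0.0608 to 0.144), and without V12 replicate 1 the log2 difference was -0.43. It was also lost with median centring (0.0733), quantile normalisation (0.0635), limma on V12 and S-V12 alone (0.0763) and the methods' t-test (0.17).

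All 3 chaperones and assembly factors passed the test, 1 higher and 2 lower, beside 14.7% of all clusters called in either direction. With 3 genes this is no result about the role. Cdc123, an assembly factor of the translation factor eIF2, read 11.26, 11.19, 10.30 and 11.27 in V12 and 9.66, 10.04, 10.02 and 9.97 in S-V12 (log2 change -1.08 ± 0.25, adjusted p 0.00506). V12 replicate 3 was the lowest of its group and still above all S-V12 arrays. Cdc37, the HSP90 partner for kinases, fell by 0.66 (adjusted p 0.0315) and its relative Cdc37l1 rose by 0.50 (adjusted p 0.0449). The Cdc37 call was lost without V12 replicate 2, 3 or 4 or S-V12 replicate 3 or 4 (adjusted p 0.0505 to 0.105), and that of Cdc37l1 without V12 replicate 1, 3 or 4, any 1 of the S-V12 replicates or E-V12 replicate 1, 3 or 4 (0.0514 to 0.114). Median centring also ended the call of Cdc37 (0.0541), and quantile normalisation (0.128) and limma on V12 and S-V12 alone (0.0659) that of Cdc37l1.

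The CDC42 effectors were split, with 2 higher and 2 lower of 11. Cdc42ep2 read 6.59, 6.0, 6.24 and 6.20 in V12 and 5.16, 5.27, 5.11 and 5.03 in S-V12 (adjusted p 0.00268). All 4 S-V12 arrays were below background, as were 3 of the 4 V12 arrays. Cdc42ep4 read 5.28, 6.05, 5.62 and 5.91 in V12, all below background, and 6.83, 6.79, 7.02 and 5.96 in S-V12, at least 1.13-fold higher (adjusted p 0.0066). The S-V12 replicate 4 value of Cdc42ep4 lay within the V12 range, and the methods' t-test did not call the gene (adjusted p 0.105).

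Cdc42ep1 was called lower (adjusted p 0.0125) with both groups below background, at 6.28, 5.66, 6.29 and 5.85 in V12 and 5.09, 5.37, 4.84 and 5.24 in S-V12. Cdc42bpa, a CDC42-binding kinase that acts on myosin, rose by 0.60 ± 0.19 (adjusted p 0.0388). Its call was lost without V12 replicate 2, 3 or 4 or S-V12 replicate 1, 2 or 4 (adjusted p 0.0518 to 0.136), with quantile normalisation (0.0906), in limma on V12 and S-V12 alone (0.0703) and in the methods' t-test (0.136).

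Stimulation against sham moved few of the genes. In E-V12 against S-V12, 1 of the 94 rose (1.06%) and 3 fell (3.19%), beside 1.19% and 1.51% of all clusters and 2.29% and 3.03% of clusters above background on at least 1 array. The groups did not overlap for 13 genes, beside 13.5% of clusters. At an unadjusted p under 0.05 there were 12 of the 94, and the share over all clusters at that threshold was not counted.

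Cdk16 read 15.39, 15.05, 15.33 and 15.14 in S-V12 and 14.36, 14.36, 13.96 and 14.07 in E-V12 (log2 change -1.04 ± 0.20, adjusted p 0.0122). Cdk10 read 9.80, 9.80, 9.50 and 9.74 in S-V12 and 8.93, 8.63, 8.73 and 8.53 in E-V12 (-1.01 ± 0.20, adjusted p 0.0123). Neither pair of groups overlapped, and for both genes S-V12 was the highest of the 4 groups, with CON at 14.08 ± 0.44 and 9.18 ± 0.44. The comparisons with V12 and with E-V12 share the S-V12 arrays. Both calls were lost without E-V12 replicate 3, at an adjusted p of 0.0581 for Cdk16 and 0.0515 for Cdk10.

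E2f4, raised in V12, was lower with stimulation. It read 9.22, 9.13, 8.90 and 8.45 in S-V12 and 8.19, 8.08, 8.08 and 7.72 in E-V12 (log2 change -0.90 ± 0.21, adjusted p 0.0241), all of the latter still above the CON arrays. The call was lost without S-V12 replicate 1 or 2 or E-V12 replicate 3 or 4 (adjusted p 0.0672 to 0.0824) and in the methods' t-test (0.0797). Cdkn1a also fell here (-1.19 ± 0.29, adjusted p 0.0293).

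Cdk2ap2, a protein that binds the CDK2-associated factor Cdk2ap1, read 5.93, 5.70, 6.33 and 6.24 in S-V12, all below background, and 6.89, 6.60, 6.99 and 6.87 in E-V12. It was at least 1.28-fold higher (adjusted p 0.0374), and the groups did not overlap. The call was lost without S-V12 replicate 1, 2 or 4 or E-V12 replicate 1, 3 or 4 (adjusted p 0.0668 to 0.134) and in the methods' t-test (0.0754). Of 6 measured erythroid markers, the haemoglobin chains Hba-a1 and Hbb rose in the same comparison. In V12 against CON and in S-V12 against V12, 1 of the 6 fell. Of 10 measured endothelial markers, 1 fell in E-V12 against S-V12 (median log2 change -0.40). Against CON, 2 endothelial markers rose and 1 fell in V12, and 1 rose and 4 fell in E-V12. The part of these cell types in the results was not tested.

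**Figure D4:**
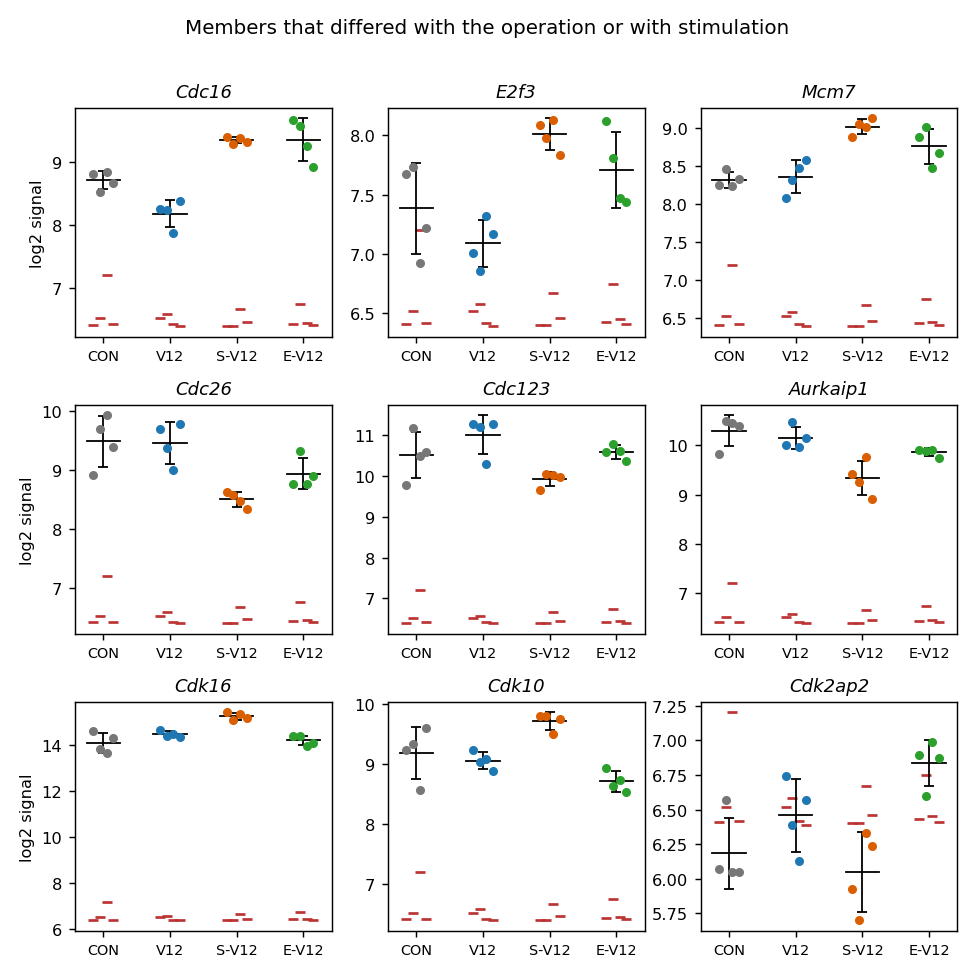
Log2 signal (y axis) of 9 genes on each of 16 arrays, by group (x axis), for genes that passed the test in S-V12/V12 or E-V12/S-V12. Points are arrays, lines and bars are the mean ± SD (n = 4), and red ticks are each array's highest background row. Cdk16 lies between 15.05 and 15.39 in S-V12 and between 13.96 and 14.36 in E-V12.

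Against the same 4 CON arrays, 21 of the 94 genes rose (22.3%) and 13 fell (13.8%) in S-V12. Over all clusters 12.0% rose and 12.8% fell there (24.8% in either direction), and 22.4% and 22.9% of clusters above background on at least 1 array. In E-V12, 20 rose (21.3%) and 14 fell (14.9%). Over all clusters 10.9% rose and 12.6% fell there (23.5% in either direction), and 19.3% and 23.0% of clusters above background on at least 1 array. In both comparisons the share that rose lay above that over all clusters, and the set was not tested as a whole. The groups did not overlap for 31 genes in S-V12 and 34 in E-V12, beside 24.0% and 23.4% of clusters. Ccnl1 was changed by 2.05 ± 0.18 in S-V12 and 2.12 ± 0.18 in E-V12, and E2f4 by 2.23 ± 0.21 and 1.32 ± 0.21. Cdk12 was changed by 1.87 and 1.47, Cdk13 by 1.23 and 1.20, and Cdk9 by 1.21 and 1.05. Cdk5rap1 changed by -1.49 and -1.89 and Ccnd3 by -0.62 and -1.27. The S-V12 call of Ccnd3 was lost without CON replicate 2 or 4 or S-V12 replicate 2, 3 or 4 (adjusted p 0.0596 to 0.0767).

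Other genes of the cycle were counted from lists that hold none of the 94. Of 37 measured genes of G1/S and replication, 3 rose (8.11%) and 4 fell (10.8%) in V12 against CON, beside 7.68% and 8.67% of all clusters. In S-V12 against V12, 3 fell (8.11%), beside 6.66% of all clusters. In E-V12 against S-V12, 1 rose (2.7%), beside 1.19%. Pcna, the sliding clamp of DNA polymerase, rose in V12 by 0.81 ± 0.19 (adjusted p 0.00481) and again in E-V12 against S-V12 by 0.89 ± 0.19 (adjusted p 0.0192). Rrm1 and Slbp of the same list went the other way in V12 against CON. The mean of Rrm1 was 11.03 in CON and 9.96 in V12, and that of Slbp 8.33 and 7.22, both without overlap. The replication genes of this list thus did not move in 1 direction after ventilation. Of 41 genes of G2/M and mitosis, 1 rose in V12, the chromatin protein gene Hmgb2 (0.83 ± 0.22, adjusted p 0.0104), and none passed in the other 2 comparisons (3 and 0 at an unadjusted p under 0.05).

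Of 47 other regulators, 5 rose (10.6%) and 6 fell (12.8%) in V12 against CON, beside 7.68% and 8.67% of all clusters. Myc, a growth-promoting transcription factor, was below background in CON and at least 21.6-fold higher in V12 (adjusted p 1.2e-10), and its partner Max rose by 1.84 ± 0.18 (adjusted p 1.37e-07). Rbl2, the pocket protein p130 that binds E2F4 in resting cells, fell by 1.06 (adjusted p 0.000188), and Tob1, an antiproliferative factor, by 1.95 (adjusted p 8.19e-05). Tfdp2, which pairs with E2F factors, was also lower, at a mean of 11.29 in CON and 10.25 in V12, without overlap. The changes named are thus not all in a direction that favours division. In S-V12 against V12, Myc, Mxd1 and Btg1 rose while Tfdp2, an E2F partner, and Anapc13 fell, and none of the 47 passed in E-V12 against S-V12 (5 at an unadjusted p under 0.05).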

How the data were processed

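Total RNA of each diaphragm was hybridised to a Rat Clariom S array. The authors deposited 1 table of log2 signals, which they normalised with SST-RMA in the Transcriptome Analysis Console. The build behind the array's design was not given in the sources used here. Gene symbols came from the platform's annotation, with 15049 clusters holding 1 symbol and 8139 none. After 1646 control rows were left out, limma 3.58.1 (R 4.3.3) fitted the 4 group means over all 16 arrays and 23188 clusters, p-values were adjusted by Benjamini-Hochberg, and an adjusted p under 0.05 was the call. SE is limma's moderated error. Where no array of a group exceeded its highest background row, a gene has only a bound in that group. The number of arrays limits the precision. Named were all members passing in V12/CON, S-V12/V12 or E-V12/S-V12 plus 28 core members, 26 of them measured (Mcm5 and E2f8 were not analysed here). Values per array were planned for every core member, but those below background on all arrays are mostly given by range. Members and lists were chosen with earlier results of these data known. The fit was tested on simulated data. Replicate numbers did not pair the rats: correlations of same-numbered deviations were -0.084 to 0.111. Alternatives covered the test, threshold, normalisation, variance model, weights, filter, block and each array left out.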

Additional observations from a re-analysis of the deposited data

Results flagged for a closer look

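Among 220 sets of 4 arrays (55 named genes in 4 groups), 10 held 1 array far from the other 3, with a gap above Dixon's critical share of the range. Chance flags about 1 in 20 such sets. Aurkaip1 read 9.83 in CON replicate 1 (the others 10.39 to 10.50) and 9.75 in E-V12 replicate 4 (9.89 to 9.91). Ccnd3 read 9.78 in E-V12 replicate 3 (10.46 to 10.52) and 11.16 in S-V12 replicate 1 (10.88 to 10.89). Cdc123 read 10.30 in V12 replicate 3 (11.19 to 11.27). Cdk2ap2 read 6.57 in CON replicate 2 (6.05 to 6.07) and Cdkn1c 4.89 in CON replicate 4 (5.98 to 6.16). Below background on every array, Ccne1 read 4.56 in V12 replicate 4 (3.99 to 4.06), Cdk1 4.24 in E-V12 replicate 2 (3.68 to 3.76) and Cdkn2c 5.81 in CON replicate 2 (4.65 to 4.81).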

How the results depend on the processing

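No call on any of the 94 genes changed direction under the alternatives run. At the study's threshold, an unadjusted p under 0.05 and a fold of 2, the methods' t-test gave for V12/CON 4 genes higher with 2 lower, for S-V12/V12 1 higher with 2 lower, for S-V12/CON 10 higher with 4 lower and for E-V12/CON 7 higher with 5 lower. For E-V12/S-V12 it gave 0 higher with 2 lower. At that threshold limma gave 5 higher with 2 lower for V12/CON. Its numbers elsewhere were those of the t-test (1 and 2, 10 and 4, 7 and 5, and 0 and 2). With adjusted p the methods' t-test gave 3 higher with 3 lower for V12/CON, 8 with 5 for S-V12/V12 and 0 with 2 for E-V12/S-V12. It gave 14 higher with 8 lower for S-V12/CON and 12 with 10 for E-V12/CON. Fitting only the compared groups gave 9 higher with 5 lower for V12/CON and 2 higher with 3 lower for E-V12/S-V12. For S-V12/V12, quantile normalisation gave 5 higher and array median centring 5 lower. Leaving out 1 array gave for V12/CON 8 to 13 higher with 5 to 11 lower, for S-V12/V12 5 to 9 of each, for E-V12/S-V12 0 to 1 higher with 0 to 3 lower, for S-V12/CON 16 to 22 higher with 10 to 14 lower, and for E-V12/CON 15 to 19 higher with 11 to 15 lower. The replicate number as a block gave 11 higher with 9 lower for V12/CON, 8 with 7 for S-V12/V12 and 0 with 3 for E-V12/S-V12, although the numbers do not pair the rats. With that block the calls of E2f6 (adjusted p 0.0542) and Cdc37l1 (0.0509) in S-V12/V12 and of Cdk2ap2 (0.0516) in E-V12/S-V12 were lost. Cdc25b in E-V12/CON moved from -0.72 to -0.46 (adjusted p 0.178) without CON replicate 1. The cause of these differences was not tested. With the second-highest background row as the limit, chosen after seeing the data, 44 genes were above and 27 below on all arrays. For the 31 genes below background on all arrays, no fold could be given.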
